A study of Mus musculus with 8 samples.

Results

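Genes of the adipocyte, of lipid droplets and of fatty acid metabolism were measured in mouse omentum cells given as mesothelial. Mesothelial cells form the smooth lining of the abdominal organs. The libraries also held many reads of macrophage and fibroblast markers. The set holds 51 genes listed by Entrez identifier, and all 51 were found among the 36528 genes of each file. Of these, 8 are made mainly by adipocytes (Adipoq, Retn, Lep, Cidea, Cidec, Plin1, Plin4 and Car3), and the other 43 are lipid genes that many cell types use. RNA was sequenced in 4 libraries labelled WT and 4 labelled BAP1 KO, a knockout of the nuclear deubiquitinase BAP1, which removes ubiquitin from histone H2A. Setting the genotypes side by side addresses what losing BAP1 does to expression. The strain, age and sex of the mice, the way Bap1 was deleted and the time since deletion are not stated in the labels. The labels do not tie libraries to animals or cultures, so p-values reflect only how far these 8 libraries spread, and that spread may be technical.

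Cells store fatty acids as triglyceride in lipid droplets, which are coated by perilipins. Adipocytes use Plin1, Plin4 and Cidec for their large droplets, while most other cells, macrophages among them, coat small droplets with Plin2 and Plin3. Fatty acids are made from citrate by Acly, Acaca and Fasn, then lengthened by elongases and given double bonds by desaturases. They are joined to coenzyme A by the Acsl enzymes, and are then esterified into triglyceride by Gpam, Agpat2, Lpin1, Dgat1 and Dgat2 or taken into mitochondria by carnitine palmitoyltransferases and oxidised. Droplets are broken down in steps by Pnpla2, Lipe and Mgll. The omentum is a fatty fold of the peritoneum in which mesothelium lies directly on adipose tissue.

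Promoter windows from RefSeq on GRCm38.p6 were matched for 40 of the 51 members. Those of 2 adipocyte genes that were higher in BAP1 KO and of the 3 members with the largest fall are printed here, because these carry the contrast in direction described afterwards. Each stretch is the part of the 250 bases before the transcript start that lies outside the gene's own RefSeq span, written 5′ to 3′ on the gene's strand. Capitals mark the motifs searched, on both strands.
Adipoq, chr16:23146286-23146535, plus strand: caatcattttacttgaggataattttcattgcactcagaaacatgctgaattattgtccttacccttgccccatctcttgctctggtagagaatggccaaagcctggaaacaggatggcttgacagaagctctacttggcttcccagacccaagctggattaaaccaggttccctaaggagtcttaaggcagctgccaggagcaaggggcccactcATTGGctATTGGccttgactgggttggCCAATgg
Plin1, chr7:79732905-79733026, minus strand: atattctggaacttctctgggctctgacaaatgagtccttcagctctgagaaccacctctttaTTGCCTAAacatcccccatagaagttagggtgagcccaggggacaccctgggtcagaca
Elovl6, chr3:129532136-129532385, plus strand: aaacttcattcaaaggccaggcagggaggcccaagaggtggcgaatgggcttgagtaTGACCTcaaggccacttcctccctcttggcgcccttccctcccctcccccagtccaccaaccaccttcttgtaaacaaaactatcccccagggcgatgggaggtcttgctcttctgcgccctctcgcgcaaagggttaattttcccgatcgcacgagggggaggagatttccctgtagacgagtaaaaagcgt
Mgll, chr6:88724162-88724411, plus strand: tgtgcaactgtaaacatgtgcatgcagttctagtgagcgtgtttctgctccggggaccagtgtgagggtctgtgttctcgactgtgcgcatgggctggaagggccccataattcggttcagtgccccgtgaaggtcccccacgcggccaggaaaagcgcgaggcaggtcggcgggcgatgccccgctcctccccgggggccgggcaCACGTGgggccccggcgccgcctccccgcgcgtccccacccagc
Ehhadh, chr16:21787835-21788084, minus strand: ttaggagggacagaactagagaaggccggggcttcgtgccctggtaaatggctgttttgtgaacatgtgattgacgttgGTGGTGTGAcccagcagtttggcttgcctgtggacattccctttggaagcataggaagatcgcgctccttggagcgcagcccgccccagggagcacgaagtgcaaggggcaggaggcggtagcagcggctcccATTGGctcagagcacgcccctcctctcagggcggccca

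The Adipoq stretch holds the CCAAT box, CCAAT, 3 times within the last 34 bases before the start. The Plin1 window holds TTGCNNAA, letters bound by C/EBP factors, 180 to 187 bases before the start and again 51 to 58 bases before it, where the second copy lies inside the longer RefSeq gene span and is not shown. This motif stood in 3 of 7 windows of the adipocyte-restricted members (Plin1, Lep and 1 of 2 windows of Cidec), in 3 of 47 windows of all members, and in 9.56% of the 32851 windows of all genes. The Elovl6 stretch holds AGGTCA, the core element of nuclear receptors, found in 14% of all windows, and the Mgll stretch holds the E-box CACGTG, found in 6.02%. The Ehhadh stretch holds TCACNCCAC, the letters of a sterol regulatory element, found in 1.05% of all windows, and 1 CCAAT box, found in 33.8%. The direct repeat of AGGNCA with 1 base between, the type that PPAR and RXR bind, stood in 0 of 47 member windows and in 0.338% of all windows. A match is a string of letters, and whether any factor binds there was not measured.

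Total counts were 67.1 to 84.9 M per library, where the labels' protocol speaks of 30 M reads. The sources used here do not explain the gap, so the number of reads behind a count is uncertain. Members took 0.378 to 0.379% of the counts in WT and 0.359 to 0.365% in BAP1 KO. Levels are given as CPM, each count scaled to the TMM-adjusted library total (counts per 1000000), as means over n = 4 libraries per genotype unless a library is named. Reads of Bap1 itself came to 63.2 ± 0.73 CPM in the WT libraries (SD, n = 4) and fell to 53.2 ± 0.91 CPM with BAP1 KO, and as the counts are for the whole gene they cannot show a deleted exon. Across 16929 genes tested with edgeR, 61.1% passed at an adjusted p below 0.05, with 29.0% higher and 32.1% lower in BAP1 KO and a median log2 fold change of -0.0046. The libraries of a genotype were close together (biological coefficient of variation 0.029), so small differences pass. Of the mesothelial markers, Upk3b stood at 462 CPM in WT and Msln at 6.95 CPM, and the libraries also held markers of macrophages (Lyz2, 8388 CPM in WT) and fibroblasts (Col1a1, 8351 CPM in WT). Marker lists summed in WT to 1267 CPM (mesothelial), 14330 CPM (fibroblast and preadipocyte) and 17390 CPM (macrophage) on average. Such sums follow their most abundant genes and are not shares of cells. The cell types behind a change cannot be told apart in these libraries.

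Of the 51 members, 48 had enough counts to be tested, and 43 of these passed, with 18 higher and 25 lower in BAP1 KO. This is 89.6% of the members tested, beside 61.1% of all genes. In 39 members the libraries of the genotypes did not overlap, beside 53.8% of all genes tested. The median log2 fold change was -0.10, and 33 of the 43 changed by less than 1.5-fold, as did 75.8% of all genes that passed. The adipocyte-restricted members with counts in both genotypes above the filter's minimum (Adipoq, Plin1, Plin4 and Car3) were higher, as were Retn and Cidec, which are few in counts. Among the rest, 12 of 42 tested members were higher, 25 were lower and 5 did not pass. Over all genes tested, 29.0% were higher and 32.1% lower. Fatty acid binding, lipolysis, triglyceride synthesis, fatty acid synthesis and beta-oxidation each held both rises and falls, as the plot of log2 fold changes by role shows.

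**Figure D1:**
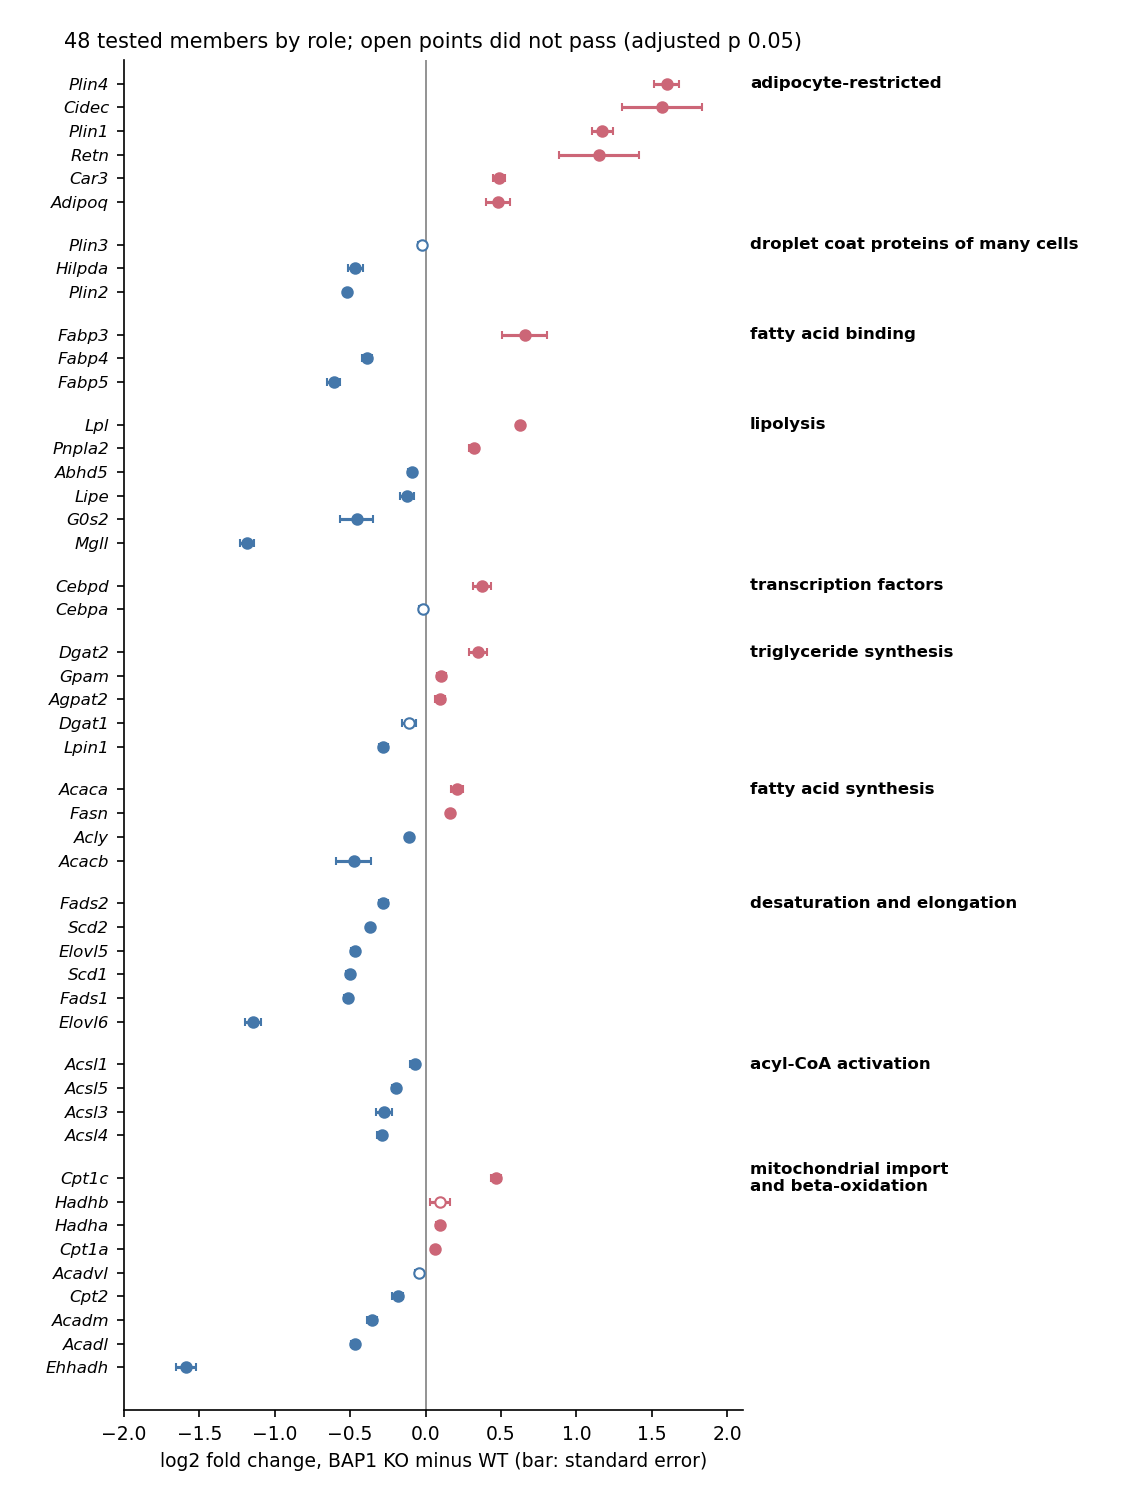
Log2 fold change (x axis, BAP1 KO minus WT) with its standard error for the 48 tested members, grouped by role. Filled points passed edgeR's test at an adjusted p of 0.05 and open points did not. The 6 tested adipocyte-restricted members lie to the right of 0, and the 6 desaturases and elongases and the 4 Acsl genes lie to the left. The filter kept Retn and Cidec through the genotype in which they were higher.

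Of the 8 adipocyte-restricted genes 6 could be tested, and these rose by 1.40- to 3.03-fold, from low levels. Among the 8580 tested genes at such levels (0.349 to 25.8 CPM over 8 libraries), 21.1% were higher and 37.9% lower. The filter kept Retn and Cidec through the genotype in which they were higher, so their part in the count says little. Lep and Cidea were too low to test. Plin1, the main droplet coat of adipocytes (chromosome 7, 79721164 to 79732904), stood at 3.06, 2.99, 2.77 and 3.21 CPM in the WT libraries and at 7.05, 6.77, 6.74 and 6.55 CPM in the BAP1 KO libraries. The genotypes are far apart, and libraries of one genotype lie close together. Its log2 fold change was 1.17 ± 0.07 (SE; edgeR adjusted p = 3.1e-15). Plin4 (chromosome 17, 56100587 to 56109948), a perilipin of nascent droplets in adipocytes, stood at 1.86, 2.06, 1.94 and 2.27 CPM in WT and 6.47, 6.14, 5.68 and 6.47 CPM in BAP1 KO. This was the largest rise among the 48 tested members, 1.598 ± 0.08 (edgeR adjusted p = 6.2e-17), with no overlap between genotypes.

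Adipoq (chromosome 16, 23146536 to 23157968), which encodes the hormone adiponectin, rose less. Its WT libraries stood at 3.77, 3.90, 3.35 and 3.85 CPM and its BAP1 KO libraries at 5.89, 4.65, 5.07 and 5.23 CPM. All BAP1 KO values lie above all WT values, but they spread more widely than those of Plin1. In edgeR this was a log2 fold change of 0.48 ± 0.08 (adjusted p = 4.3e-06). Car3, a carbonic anhydrase abundant in fat and slow muscle (chromosome 3, 14863538 to 14872381), had the highest level per length of the 8 (13.8 in WT, size-factor-adjusted RPKM), and stood at 21.1, 22.7, 20.1 and 22.2 CPM in WT and 29.4, 31.1, 28.9 and 31.3 CPM in BAP1 KO. Its log2 fold change of 0.49 ± 0.04 (edgeR adjusted p = 5.6e-12) was close to that of Adipoq.

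Cidec, which fuses droplets in white fat, and Retn, the hormone resistin, rest on few reads. Cidec had 11, 18, 9 and 15 counts in the WT libraries and 35, 43, 30 and 49 in the BAP1 KO libraries, a log2 fold change of 1.57 ± 0.26 (edgeR adjusted p = 6.1e-06). Retn had 7, 22, 15 and 23 counts in WT and 40, 27, 44 and 37 in BAP1 KO, a log2 fold change of 1.15 ± 0.27 (edgeR adjusted p = 0.00042). Neither gene overlapped between genotypes in CPM. Both reached the minimum level of the filter in 3 of 4 WT libraries and in all 4 BAP1 KO libraries, so the filter kept them through the genotype in which they were higher. With no filter the values were 1.57 (edgeR adjusted p = 7.2e-08) and 1.15 (edgeR adjusted p = 6e-05). The remaining members of the group were near 0. Lep, the hormone leptin, had 0 counts in all 8 libraries, which allows up to 3 counts or 0.035 to 0.045 CPM per library. Cidea, a droplet protein of brown fat, had 5 counts over the WT libraries and 1 over the BAP1 KO libraries, too few to test.

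**Figure D2:**
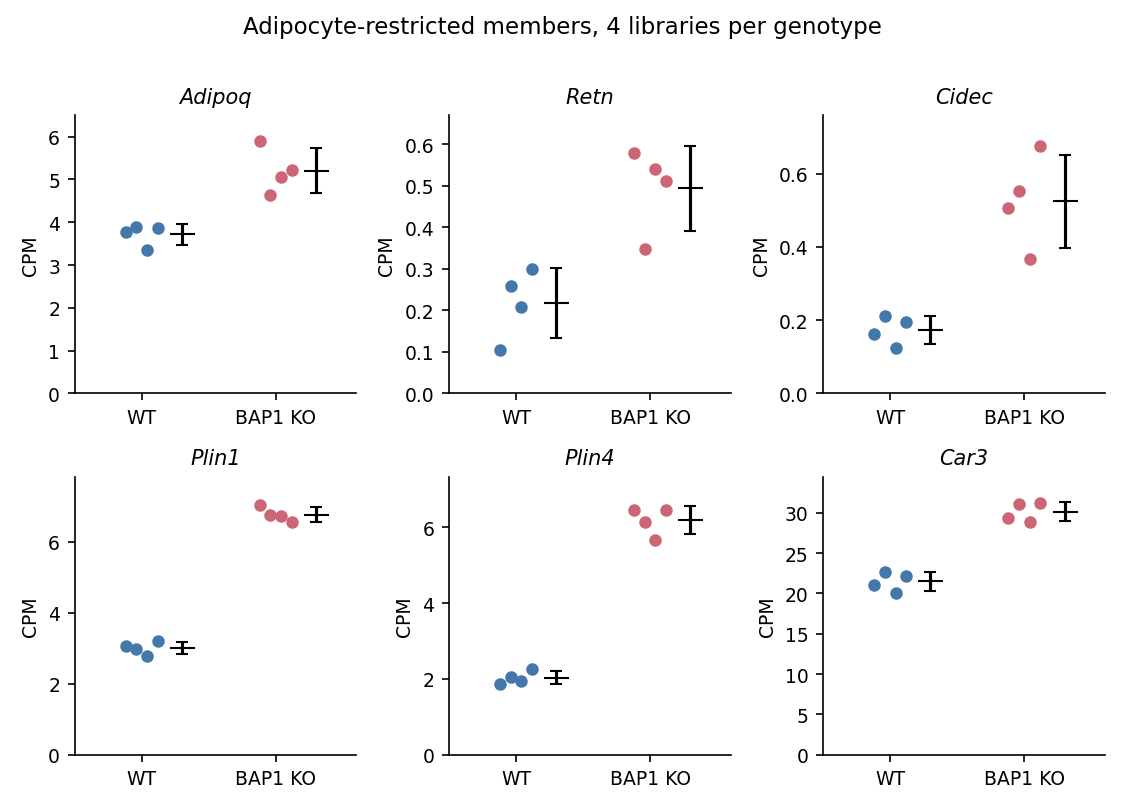
CPM (y axis, from 0) of the 6 tested adipocyte-restricted members in each library, with the mean and SD of the 4 libraries of a genotype beside the points. In every panel the 4 BAP1 KO libraries lie above the 4 WT libraries, and the fold change fitted by edgeR is largest for Plin4, at 3.03. The genotypes did not overlap in 53.8% of all genes tested, in either direction. Retn and Cidec are shown because the filter kept them through the genotype in which they were higher.

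The rises that do not depend on the filter's route are those of Adipoq, Plin1, Plin4 and Car3, which reached its minimum in all 8 libraries. The summed level of the 8 members was 28.5 to 32.1 CPM in WT and 47.3 to 50.7 CPM in BAP1 KO. Most of it was Car3, with 21.5 of a mean of 30.7 CPM in WT and 30.2 of 49.35 CPM in BAP1 KO. In bulk RNA a larger share of adipocyte-like cells and more of these transcripts per cell cannot be told apart.

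Further adipocyte genes, from a list of 13, moved both ways. Of 11 tested, 6 rose, 2 fell and 3 did not pass, beside 29.0% higher and 32.1% lower over all genes tested. But 5 of the 6 rises (Lgals12, Aqp7, Adig, Acvr1c and Thrsp, at 0.278 to 0.395 CPM in BAP1 KO) are of genes that the filter kept only through the BAP1 KO libraries, so their number says little. The 3 that did not pass were Adrb3 (1.73 and 1.61 CPM), Trarg1 (0.649 and 0.689 CPM) and Slc2a4 (0.251 and 0.3425 CPM). Their edgeR adjusted p were 0.45, 0.7 and 0.22. Among list genes that reached the filter's minimum in both genotypes, only Cfd rose. Cfd, the serum protease adipsin, passed the filter in both genotypes and rose from 1.80 to 3.80 CPM (1.07 ± 0.09, edgeR adjusted p = 8.9e-12). Aqp7, the glycerol channel of adipocytes, rose by 1.77 ± 0.31, from 35 counts over the WT libraries to 120 over the BAP1 KO libraries. Cd36, a fatty acid receptor that macrophages also carry in abundance, fell from 444 to 219.8 CPM (-1.01 ± 0.03). The sum of the 13 genes, most of it Cd36, was 443.8 to 470.5 CPM in WT and 225.2 to 246.9 CPM in BAP1 KO. Pparg, the nuclear receptor that drives adipocyte differentiation and which is singled out here after its values were seen, fell from 12.1 to 10.9 CPM (-0.16 ± 0.05, edgeR adjusted p = 0.013). That call was lost when WT replicate 2 (-0.14) or BAP1 KO replicate 1 (-0.12) was left out, and adjusted p ran from 0.0016 to 0.063 across alternatives. Ucp1, the brown fat uncoupler, and Pck1 had at most 5 counts over the libraries of a genotype and were not tested.

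Cell type markers also differed between the genotypes, and their counts stand beside 29.0% higher and 32.1% lower over all genes tested. The mesothelial list of 12 genes had 5 that rose, 5 that fell and 2 short of the threshold, and its sum was 1250 to 1279 CPM in WT and 1328 to 1338 CPM in BAP1 KO. Among them Wt1 rose from 121 to 166 CPM and Cldn15 from 29.0 to 50.97 CPM. Msln fell from 6.95 to 3.06 CPM, Krt18 from 11.7 to 4.47 CPM and Krt8 from 2.35 to 0.793 CPM. Of 12 fibroblast and preadipocyte markers, 10 fell by edgeR. Of the other 2 neither passed, so 0 rose, and the count was also 0 by DESeq2 and at an unadjusted p below 0.05. Their summed level was 13890 to 14900 CPM in WT and 11550 to 12000 CPM in BAP1 KO. Of 14 macrophage markers 6 rose, 7 fell and 1 did not pass, and their sum was 17150 to 17500 CPM in WT and 19430 to 19980 CPM in BAP1 KO. Without Lyz2 it was 8923 to 9105 CPM in WT and 8733 to 8839 CPM in BAP1 KO. Skeletal muscle, another source of Car3 and Fabp3, was judged by 8 markers, of which 2 rose, 2 fell and 4 were too low to test. Ckm, Myh4, Tnnt3 and Mb were at or under 0.149 CPM in both genotypes. Acta1 rose from 28.1 to 152.7 CPM and Actn3 from 8.53 to 10.3 CPM, while Myh1 fell from 5.38 to 3.85 CPM and Myh2 from 0.362 to 0.209 CPM. The muscle sum was 40.7 to 44.4 CPM in WT and 163 to 172 CPM in BAP1 KO. Acta1 alone held 28.1 of a mean of 42.6 CPM in WT and 152.7 of 167.3 CPM in BAP1 KO. Of 8 endothelial markers 5 were tested, and 4 fell and 1 did not pass. Kdr fell from 18.4 to 12.1 CPM and Vwf from 9.41 to 5.80 CPM, and the other 6, Pecam1 and Cdh5 among them, were at or under 0.872 CPM. The endothelial sum was 29.1 to 30.0 CPM in WT and 18.5 to 19.7 CPM in BAP1 KO. The part of these shifts in the changes of lipid genes was not tested.

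The droplet coats of other cells did not follow Plin1 and Plin4. Plin2, the coat protein that most cells place on small droplets (chromosome 4, 86626910 to 86670217), stood at 388, 388, 389.6 and 397 CPM in WT and 278, 276, 267 and 269.6 CPM in BAP1 KO. The genotypes did not overlap, with a log2 fold change of -0.52 ± 0.02 (edgeR adjusted p = 1.3e-19). Hilpda, an inhibitor of Pnpla2 that is known for its induction by hypoxia, fell from 13.1 ± 0.51 to 9.50 ± 0.38 CPM (SD; -0.46 ± 0.05). Plin3 was at 85.2 and 83.7 CPM (edgeR adjusted p = 0.44). Plin5, a perilipin of oxidative tissue, had 3 counts over the WT libraries and 13 over the BAP1 KO libraries and was not tested.

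Compared per length, in size-factor-adjusted RPKM as the authors deposited it, Plin2 was the most abundant perilipin by far. Its level was 193 in WT and 136 in BAP1 KO, that of Plin3 was 38.9 and 38.6, that of Plin1 1.55 and 3.52, and that of Plin4 0.288 and 0.883. Plin2 made up 82.6% ± 0.39 (SD, n = 4) of the summed perilipin level in WT and 76.0% ± 0.36 in BAP1 KO. Plin1 and Plin4, though they rose, reached 1.97% and 0.494% of that sum in BAP1 KO.

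Fatty acid-binding proteins, which carry fatty acids through the cytosol, were split too. Fabp4 (chromosome 3, 10204342 to 10208616), the form of adipocytes that macrophages and capillaries also make, stood at 56.9, 54.4, 56.5 and 53.3 CPM in WT and 41.99, 44.0, 42.7 and 40.3 CPM in BAP1 KO. Although counted as an adipocyte gene in common use, it fell, by 0.39 ± 0.03 on the log2 scale (edgeR adjusted p = 4e-12). Its neighbour Fabp5 (chromosome 3, 10012585 to 10016610), the form of skin and macrophages, stood at 31.9, 27.0, 29.9 and 30.4 CPM in WT and 20.1, 19.0, 19.9 and 19.1 CPM in BAP1 KO, and fell by 0.61 ± 0.04. Only uniquely aligning reads were counted, so the level of Fabp5, which has processed pseudogene copies, is uncertain. Fabp3, the form of heart and muscle, rose from 0.902, 0.753, 1.01 and 1.18 CPM to 1.94, 1.31, 1.41 and 1.42 CPM (0.66 ± 0.15, edgeR adjusted p = 0.00034). Of its 823 exonic bases 81 overlap exons of Zcchc17, which lies on the opposite strand at 29.2 and 28.8 CPM, and the library kit does not mark strand, so reads of the overlap cannot be told apart.

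**Figure D3:**
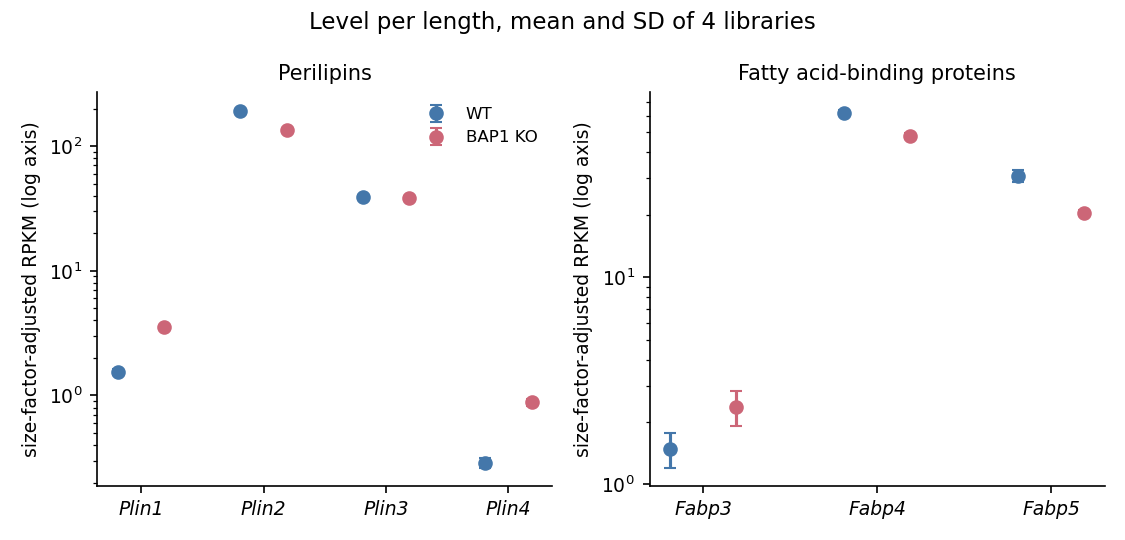
Level per length (y axis, size-factor-adjusted RPKM, log axis) of 4 perilipins and 3 fatty acid-binding proteins, as the mean and SD of 4 libraries; most SD bars are smaller than the points. The abundant Plin2, Fabp4 and Fabp5 are lower in BAP1 KO, and the scarce Plin1, Plin4 and Fabp3 are higher.

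Genes of lipolysis moved both ways. Lpl, the secreted lipase that frees fatty acids from lipoproteins and is made by adipocytes and macrophages alike (chromosome 8, 68880555 to 68906932), stood at 462, 448, 438 and 430.4 CPM in WT and 666, 684.5, 716 and 683.9 CPM in BAP1 KO. It rose by 0.63 ± 0.02 (edgeR adjusted p = 3e-20). Pnpla2, the lipase of the first step of triglyceride breakdown, rose from 57.8 ± 2.3 to 72.2 ± 1.0 CPM (0.32 ± 0.03), while G0s2, its inhibitor, fell from 2.59 ± 0.056 to 1.89 ± 0.33 CPM (-0.46 ± 0.11) and Abhd5, its activator, from 63.0 to 59.2 CPM (-0.09 ± 0.03). The fall of Abhd5 did not hold once GC and length trends were removed (-0.0002, edgeR adjusted p = 0.99). Mgll (chromosome 6, 88724412 to 88828360), which releases the last fatty acid and also degrades an endocannabinoid, stood at 19.2, 19.8, 20.2 and 19.3 CPM in WT and 8.77, 8.63, 8.04 and 9.13 CPM in BAP1 KO. With a log2 fold change of -1.18 ± 0.05 (edgeR adjusted p = 7.7e-20) it was 2.27-fold lower.

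Lipe, hormone-sensitive lipase, averaged 13.6 ± 0.90 CPM in WT libraries and 12.5 ± 0.45 CPM in BAP1 KO libraries, which overlapped. Of its exonic bases 918 overlap the antisense gene 4732471J01Rik, at 3.79 and 3.56 CPM. It passed at -0.12 ± 0.05 (edgeR adjusted p = 0.032), but the call was lost with DESeq2 and without WT replicate 2 (-0.11), WT replicate 4 (-0.09), BAP1 KO replicate 1 (-0.10) or BAP1 KO replicate 3 (-0.12), and adjusted p ran from 0.0016 to 0.13 across alternatives.

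The 2 transcription factors of the set differed. Cebpd, an early C/EBP factor of adipogenesis that also responds to inflammation, stood at 39.6, 48.2, 47.9 and 48.2 CPM in WT and 60.6, 58.3, 57.2 and 62.5 CPM in BAP1 KO (0.37 ± 0.06, edgeR adjusted p = 0.00016). Cebpa, which maintains the adipocyte state and is also a factor of myeloid cells, was at 98.1 and 96.97 CPM (edgeR adjusted p = 0.60), and passed as lower only after removal of GC and length trends (-0.16, edgeR adjusted p = 1.4e-09). Exons of Cebpd overlap those of Spidr on the opposite strand over 562 bases, and Spidr was at 20.3 and 18.9 CPM.

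Of the 5 genes of triglyceride synthesis 3 rose, 1 fell and 1 did not pass. The shares over all genes tested were 29.0% higher and 32.1% lower. The 4 that passed changed by less than 1.5-fold, as did 75.8% of all genes that passed. Gpam, the acyltransferase of the first step, rose from 63.2 ± 1.6 to 68.0 ± 0.78 CPM (0.11 ± 0.03), and Dgat2, one of the enzymes of the last step, from 5.82 ± 0.083 to 7.38 ± 0.34 CPM (0.35 ± 0.06, edgeR adjusted p = 8.1e-06). Dgat1, the other enzyme of that step, was at 17.8 and 16.5 CPM (-0.11 ± 0.05, edgeR adjusted p = 0.052). It passed as lower with library totals alone, without a filter, with the stricter filter, without WT replicate 1 (-0.15), without BAP1 KO replicate 2 (-0.14) and after removal of GC and length trends (-0.16), and adjusted p ran from 0.001 to 0.18 across alternatives. Lpin1, a phosphatidate phosphatase, fell from 38.7 ± 0.84 to 31.9 ± 0.17 CPM (-0.28 ± 0.03). Agpat2, the second acyltransferase, passed at 0.09 ± 0.03 (27.8 and 29.7 CPM), a call lost without WT replicate 1 (0.07), without BAP1 KO replicate 1 (0.08) and once GC and length trends were removed (0.02), with adjusted p from 0.011 to 0.64.

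Of the 4 genes of fatty acid synthesis 2 rose and 2 fell, all by less than 1.5-fold. Over all genes tested, 29.0% rose and 32.1% fell, and 75.8% of those that passed changed by less than 1.5-fold. Fasn, the fatty acid synthase, stood at 173, 177, 167 and 182 CPM in WT and 198, 190.7, 199 and 196 CPM in BAP1 KO, a log2 fold change of 0.16 ± 0.02 (edgeR adjusted p = 9.6e-07). Once trends with GC content and transcript length were removed from each library, its direction turned and the call was lost (-0.02, edgeR adjusted p = 0.25). Acaca, the cytosolic acetyl-CoA carboxylase, rose from 18.9 ± 0.81 to 21.9 ± 1.1 CPM (0.21 ± 0.04), and Acacb, the mitochondrial form that restrains oxidation, fell from 2.24 ± 0.29 to 1.61 ± 0.19 CPM (-0.47 ± 0.12, edgeR adjusted p = 0.00072), with overlapping libraries. Acly, which makes cytosolic acetyl-CoA, was the most abundant of the 4 per length (80.4 in WT and 75.3 in BAP1 KO, size-factor-adjusted RPKM) and fell from 385 to 358 CPM (-0.11 ± 0.02).

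All 6 desaturases and elongases of the set fell, and no library of one genotype overlapped the other. Over all genes tested, 32.1% were lower and 53.8% had no overlap. The fall did not extend to all such genes outside the set. There the elongase Elovl1 rose from 139.9 to 166.6 CPM (0.25 ± 0.02, edgeR adjusted p = 1.6e-10), and the desaturase Fads3 rose too. Elovl7 fell from 0.632 to 0.376 CPM, Elovl4 did not pass, and Elovl3 and Scd3 were not tested. Scd1 and Scd2, neighbouring genes on chromosome 19 for stearoyl-CoA desaturases, which make monounsaturated fatty acids, fell together. Scd1 (44394450 to 44407709) stood at 136, 133, 131 and 135 CPM in WT and 92.9, 98.4, 94.7 and 91.6 CPM in BAP1 KO (-0.50 ± 0.03, edgeR adjusted p = 3.6e-17). Scd2 (44293676 to 44306864) stood at 196, 202, 199.6 and 197 CPM in WT and 152.5, 153, 157 and 154 CPM in BAP1 KO (-0.37 ± 0.02). Per length Scd2 exceeded Scd1, at 36.0 and 27.3 in WT and 28.1 and 19.4 in BAP1 KO (size-factor-adjusted RPKM).

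Elovl6 (chromosome 3, 129532386 to 129638495), which lengthens palmitate to stearate, fell the most of the 6. Its libraries stood at 15.3, 15.9, 16.1 and 16.1 CPM in WT and 6.83, 6.73, 7.68 and 7.46 CPM in BAP1 KO, a log2 fold change of -1.14 ± 0.05 (edgeR adjusted p = 2.1e-18), or 2.21-fold lower. Elovl5, an elongase of polyunsaturated fatty acids, fell from 93.6 ± 1.9 to 67.6 ± 1.0 CPM (-0.47 ± 0.03). Fads1 and Fads2, neighbouring genes for the rate-limiting desaturases of polyunsaturated fatty acids, fell from 169.9 ± 3.3 to 119 ± 2.5 CPM (-0.52 ± 0.02) and from 67.0 ± 2.7 to 55.2 ± 1.1 CPM (-0.28 ± 0.03). The median of the 6 was -0.49, beside -0.0046 over all genes tested. None rose, by edgeR, DESeq2 or limma-voom (0 also at an unadjusted p below 0.05), and all 6 also fell after removal of GC and length trends. Over all genes tested with edgeR, 29.0% were higher and 32.1% lower.

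**Figure D4:**
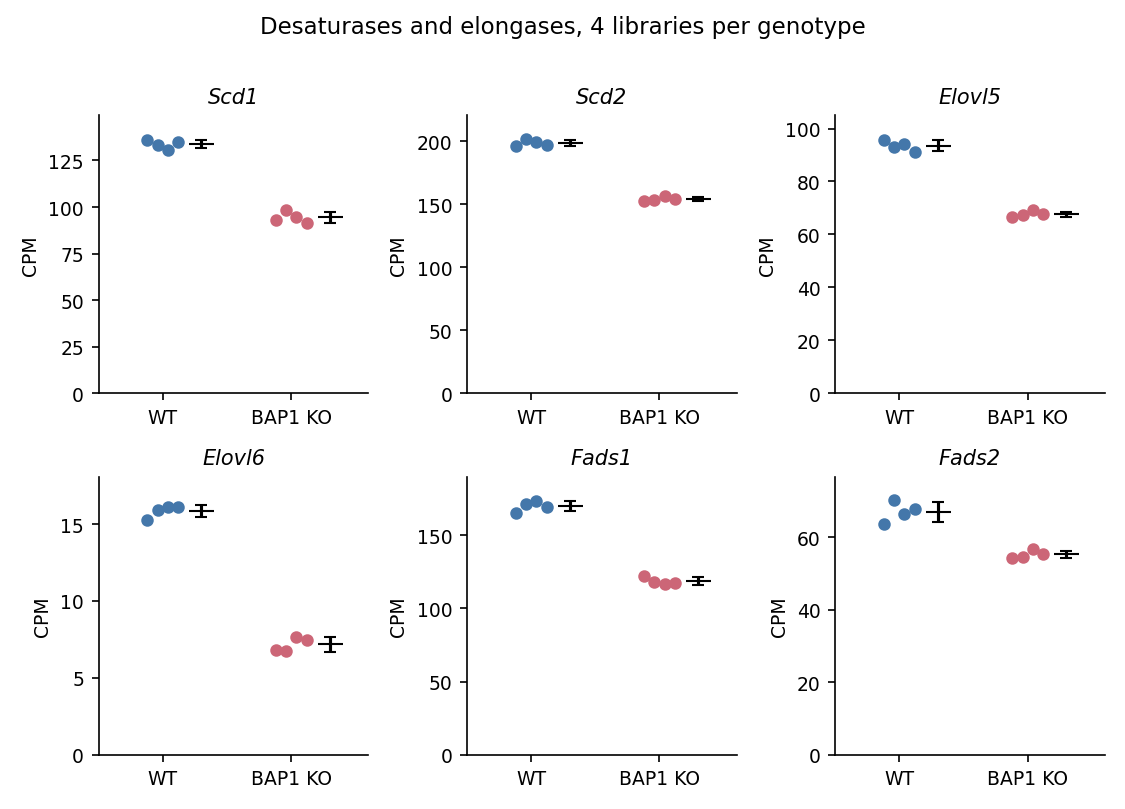
CPM (y axis, from 0) of 2 stearoyl-CoA desaturases, 2 elongases and 2 fatty acid desaturases in each library, with the mean and SD of the 4 libraries of a genotype. The 4 BAP1 KO libraries lie below the 4 WT libraries in every panel, and Elovl6 shows the largest relative gap.

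The Acsl enzymes, which join fatty acids to coenzyme A, were lower throughout. Acsl4, which prefers arachidonic acid, fell from 207.6 ± 10.7 to 169.7 ± 6.0 CPM (-0.29 ± 0.03, edgeR adjusted p = 4.8e-08), Acsl5 from 138.6 ± 2.3 to 121 ± 2.8 CPM (-0.20 ± 0.02) and Acsl3 from 16.3 ± 1.3 to 13.4 ± 0.54 CPM (-0.28 ± 0.05). The value for Acsl3 became -0.18 after removal of GC and length trends, and its exons overlap those of Utp14b on the same strand over 244 bases. Exons of Acsl5 overlap those of Zdhhc6 on the opposite strand over 404 bases, and Zdhhc6 was at 28.6 and 29.6 CPM. Acsl1, the main form of adipocytes, was at 56.7 and 54.0 CPM, and its call at -0.07 ± 0.03 (edgeR adjusted p = 0.032) was lost under DESeq2, under RLE scaling, without WT replicate 2 (-0.06), WT replicate 3 (-0.06), BAP1 KO replicate 1 (-0.07) or BAP1 KO replicate 4 (-0.06), and after removal of GC and length trends (-0.01), with adjusted p from 0.0089 to 0.87. None of the 4 rose, by edgeR or DESeq2 (0 also at an unadjusted p below 0.05), where edgeR called 29.0% of all genes tested higher and 32.1% lower.

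Genes of mitochondrial import and beta-oxidation were split, with 3 that rose, 4 that fell and 2 that missed the threshold. This stands beside 29.0% higher and 32.1% lower over all genes tested. Ehhadh (chromosome 16, 21761285 to 21787834), the bifunctional enzyme of peroxisomal beta-oxidation and a classical target of the nuclear receptor PPARalpha, stood at 8.81, 8.85, 8.77 and 9.02 CPM in WT and 2.83, 3.07, 2.77 and 3.12 CPM in BAP1 KO. No other member fell as far, with a log2 fold change of -1.59 ± 0.07 (edgeR adjusted p = 2.4e-19), or 3.01-fold lower. Acadl and Acadm, the dehydrogenases of long- and medium-chain acyl-CoA, fell from 75.4 ± 1.9 to 54.5 ± 1.4 CPM (-0.47 ± 0.03) and from 32.02 ± 0.32 to 25.0 ± 0.63 CPM (-0.36 ± 0.03). Cpt2, the carnitine palmitoyltransferase of the inner membrane, fell from 30.1 ± 0.42 to 26.5 ± 0.88 CPM (-0.19 ± 0.03).

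Cpt1c, a brain form of the outer-membrane enzyme with little catalytic activity, rose from 36.3 ± 1.2 to 50.2 ± 1.0 CPM (0.47 ± 0.03, edgeR adjusted p = 3.2e-14). Cpt1a, the liver form, passed at 0.06 ± 0.02 (174.6 and 182 CPM), a call lost with library totals alone (0.05), and when WT replicate 1 (0.05) or BAP1 KO replicate 1 (0.05) was left out, with adjusted p from 0.00029 to 0.08. Hadha, a subunit of the trifunctional protein, rose from 147.7 to 157.7 CPM (0.10 ± 0.02), while its partner subunit Hadhb was at 5.76 and 6.17 CPM (edgeR adjusted p = 0.21) and passed as higher only after removal of GC and length trends (0.17). Acadvl, the very-long-chain dehydrogenase, was at 76.3 and 73.9 CPM (edgeR adjusted p = 0.13). It passed as lower with library totals alone (-0.06) and after removal of GC and length trends (-0.07), and 1151 of its 2686 exonic bases overlap Dvl2 on the opposite strand, which was at 24.9 and 27.1 CPM.

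**Figure D5:**
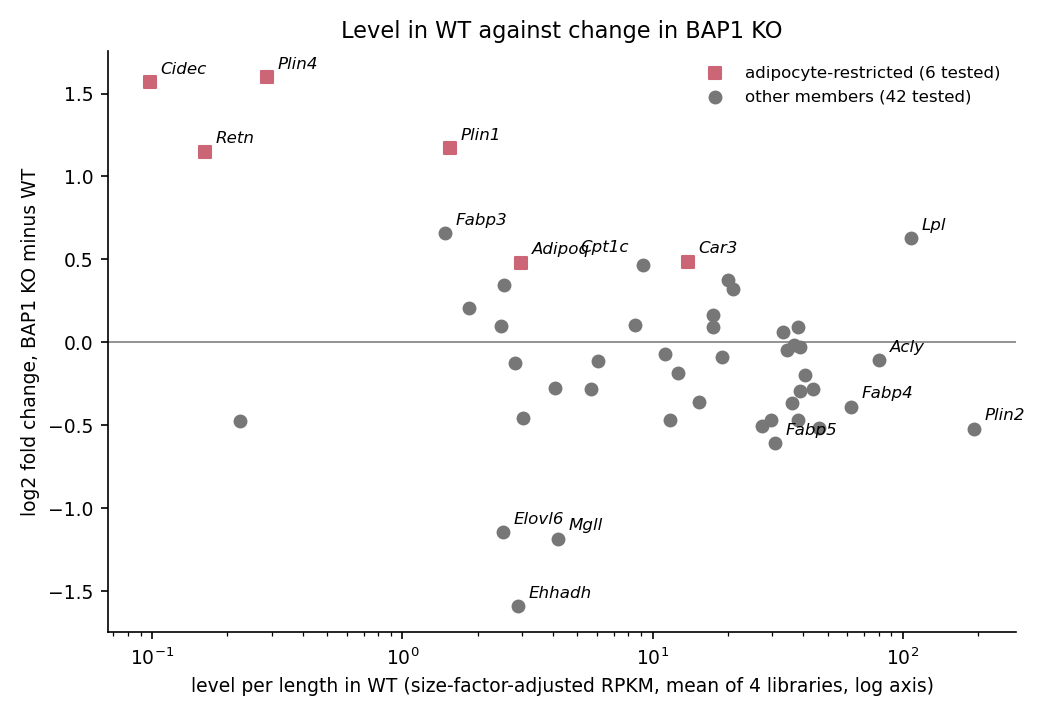
Level per length in WT (x axis, size-factor-adjusted RPKM, mean of 4 libraries, log axis) against log2 fold change in BAP1 KO (y axis) for the 48 tested members. The adipocyte-restricted members (squares) lie above 0 and, apart from Car3 at 13.8, at 2.98 or less. Lpl is the one abundant member far above 0, and Ehhadh, Mgll and Elovl6 lie lowest.

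Other genes of these pathways came from lists that name no member. Of 22 further beta-oxidation genes, all tested, 12 fell and 7 rose, 3 missed the threshold, and the median was -0.09, beside 61.1% called and a median of -0.0046 over all genes tested. Hadh and Acaa2, which act on short chains and in the last step of the mitochondrial spiral, fell from 64.5 to 48.5 CPM (-0.41 ± 0.03) and from 49.2 to 36.3 CPM (-0.44 ± 0.03), and Decr1, which prepares polyunsaturated chains for oxidation, from 47.7 to 36.7 CPM (-0.38 ± 0.03). Of 18 further genes of fatty acid synthesis and chain modification 16 were tested, of which 5 rose, 6 fell and 5 did not pass, so 68.8% passed beside 61.1% of all genes. The dehydratases of chain elongation diverged, with Hacd2 rising from 26.5 to 41.3 CPM (0.64 ± 0.03) and Hacd4 falling from 137.7 to 95.2 CPM (-0.53 ± 0.03). Fads3, next to Fads1 and Fads2 on chromosome 19, rose from 128 to 166 CPM (0.37 ± 0.03).

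Of 22 further triglyceride and droplet genes 17 were tested, of which 4 rose, 7 fell and 6 did not pass. The share that passed, 64.7%, is near the 61.1% of all genes. Slc27a1, a fatty acid transporter, fell from 36.1 to 23.2 CPM (-0.64 ± 0.04), Lpin2, a paralogue of Lpin1, from 43.3 to 32.3 CPM (-0.43 ± 0.03), and Agpat4, a paralogue of Agpat2, from 31.96 to 23.2 CPM (-0.46 ± 0.04). Of 15 transcription regulators of lipid genes 5 rose, 4 fell and 6 did not pass, and the 60.0% that passed is also near the share over all genes. Srebf1, which drives fatty acid synthesis and desaturation, rose from 84.0 to 103 CPM (0.29 ± 0.03, edgeR adjusted p = 4.3e-10), Insig2, which holds its precursor in the endoplasmic reticulum, fell from 40.8 to 33.9 CPM (-0.27 ± 0.03), and Nr1h2, the liver X receptor beta, rose from 70.5 to 84.1 CPM (0.25 ± 0.03). Ppara, singled out after its values were seen, fell from 2.23 to 1.47 CPM (-0.60 ± 0.11, edgeR adjusted p = 2.4e-05). The activity of these regulators was not measured.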

How the data were processed

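RNA of 8 libraries, 4 WT and 4 BAP1 KO, was grouped by the genotype in the labels. Per the labels' protocols, libraries were made with TruSeq RNA v2, which does not mark strand, and sequenced as single-end reads. Per the submitters' processing notes, the tool was GSNAP and the build GRCm38; no version, annotation or strand setting is stated there. Each deposited count is a number of uniquely aligning reads per Entrez gene, per the file headers. The deposited RPKM carry a size-factor adjustment, per the file headers. RPKM served only to compare levels between genes. RefSeq gave symbols for 31049 of 36528 identifiers.

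The test on counts was the quasi-likelihood F test of edgeR 4.0.16 in R 4.3.3, robust, with TMM scaling, filterByExpr (about 10 counts, 0.133 CPM, in 4 libraries) and Benjamini-Hochberg adjustment over all 16929 genes tested, at 0.05. Standard errors are the log2 fold change over the square root of F. The test was also run on simulated counts in which few genes changed, equally up and down. In these data 61.1% of genes passed, so that run does not check the scaling used here. Total counts were 67.1 to 84.9 M per library. Within a genotype, the median squared difference between libraries was 2.39 to 5.33 times that of counting noise, and each was kept as a replicate. Alternatives were RLE factors, library totals, no filter, CPM above 1 in 4 libraries, DESeq2 1.42.0, limma-voom 3.58.1 and each library left out. Removal of trends with GC content and transcript length (mgcv 1.9.3), possible for 85.1% of tested genes and all tested members, was chosen after seeing the data. Motifs were searched in the 250 bases before each RefSeq start. All members are named. Of each further pathway list, the 3 genes with the smallest adjusted p are named, and of some lists more. Marker genes were not named by this rule. The members and lists were chosen with earlier results of these data known.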

Additional observations from a re-analysis of the deposited data

Results flagged for a closer look

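In 2 of 96 groups of 4 libraries (48 tested members in each genotype) a single library stood far from the other 3, where chance gives about 1 in 20. Cebpd in WT replicate 1 was at 39.56 CPM, against 47.94 to 48.18 CPM in the other WT libraries, and its gap took up 0.972 of the range of the group. Agpat2 in BAP1 KO replicate 1 was at 30.45 CPM, against 29.42 to 29.55 CPM in the other BAP1 KO libraries, with a gap of 0.876 of the range. Without WT replicate 1 the log2 fold change of Cebpd was 0.31 (edgeR adjusted p = 7.7e-10), and without BAP1 KO replicate 1 that of Agpat2 was 0.08 (edgeR adjusted p = 0.059).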

How the results depend on the processing

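Of 48 tested members, 38 kept their direction and their side of the threshold in each of the 15 alternatives in which they were tested. Among them were Adipoq, Plin1, Plin4 and Car3 and all 6 desaturases and elongases. Retn and Cidec, kept by the filter through the genotype in which they were higher, are also among the 38. These 2 could not be tested with the stricter filter. The other 10 (Lipe, Abhd5, Cebpa, Dgat1, Agpat2, Fasn, Acsl1, Cpt1a, Acadvl and Hadhb) all had log2 fold changes of at most 0.16 in size. Fasn alone among members turned direction, from 0.16 to -0.021 after removal of GC and length trends. Among the list genes the same removal turned Cebpb (-0.22), Hsd17b12 (0.0094), Tecr (-0.0696), Acads (-0.0685), Acad11 (0.0139), C1qa (-0.0319), C1qc (-0.0747) and Pdgfrb (-0.043). The cause was not tested. Counts of members higher and lower with a library left out ran from 16 to 18 and from 23 to 26, and those of all genes from 4650 to 4883 and from 5172 to 5370. No paired analysis was possible because the labels give no replicate numbers. Depth limits Lep, Cidea and Plin5, and leaves Retn and Cidec with 23 counts or fewer per WT library.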
